A study of Mus musculus with 4 samples.

Results

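Pseudogenes are copies of genes that are annotated as having lost the ability to code for the parent's protein. A processed pseudogene arose from a spliced mRNA that was copied back into DNA, so it lacks introns and usually the parent's promoter. An unprocessed pseudogene arose by duplication of the gene with its introns, and a unitary pseudogene is a gene that lost its function with no other copy left. A pseudogene is called transcribed where RNA from it is on record. Ribosome profiling (Ribo-seq) sequences the short stretches of RNA that a ribosome protects from nuclease, called footprints, and translation efficiency (TE) is the footprint level of a gene divided by its RNA level.

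The pseudogenes described here are those with a TE ratio above 0 in each of 4 Ribo-seq libraries. The libraries came from FGSCs (female germline stem cells), which were cultured from mouse ovary. Of 5762 pseudogenes among the 30694 genes of the TE table, 183 met this rule (3.18%). The cells of 2 libraries (shGm26917) carried a lentiviral short hairpin RNA against the long noncoding RNA Gm26917, and those of the other 2 (shNC) carried a control hairpin. The study calls the 2 libraries of a group biological replicates, and how the cultures were separated is not described, so p-values measure the spread between these libraries. The age of the animals is not given in the sources used here, and infected cells were under drug selection in the study's methods.

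The ratio itself chose these pseudogenes, so their presence and level are given as a description. The TE table holds ratios only, so the number of reads behind each ratio is not given. Gm26917 itself, a long noncoding RNA at chr17:39843013-39846341, had a TE ratio of 17.03 and 23.8 in the shNC libraries and 113 and 8.62 in the shGm26917 libraries. A ratio does not show the RNA level, so the knockdown could not be checked from it. Replicate 1 of shGm26917 stood apart from the other libraries. Its open reading frames (ORFs) held 157914 reads against 1049143 to 1753036 in the other 3 libraries, and 372 ORFs were above 0 in it against 3421 to 4250. These reads are summed over the ORFs above 0, so the sum depends on that number and is not a measure of sequencing depth. Across the 10115 genes that had a positive ratio in every library, the correlation of its log2 TE with the others was 0.772 to 0.783, whereas the other 3 pairs of libraries gave 0.921 to 0.935.

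Values for cell type markers were limited, and a TE ratio does not show how abundant a marker is. Of 13 germline markers 10 were in the TE table and 3 had a ratio above 0 in all 4 libraries. These were Ifitm3 (1.22 to 2.19), Kit (0.674 to 1.19) and Gfra1 (0.0957 to 2.45). Nanos3, Prdm1 and Zbtb16 had a ratio above 0 in some libraries, and Ddx4, Dppa4, Lin28a and Pou5f1 in none. The study characterized its FGSCs by RT-PCR and immunofluorescence for markers that included Ddx4 and Oct4 (Pou5f1). Of 6 stromal markers 5 were in the table and all of these were above 0 in all 4 libraries, with Col1a2 between 2.86 and 3.39. The ratio was above 0 in all libraries for 4 of 6 myeloid markers and for 0 of the 4 follicle markers in the table. Among these lists, only the macrophage gene Lyz2 met the study's threshold for a change (a fold change of 1.5 or more at an unadjusted p of 0.05 or less), with 0.272 and 0.177 in shNC against 12.03 and 1.25 in shGm26917. Over the annotated ORFs of a list, the summed footprint value was 1111 and 797 for germline markers in shNC and 0 and 799 in shGm26917, all of it from Ifitm3. For stromal markers it was 3921 and 4226 in shNC and 677 and 2984 in shGm26917. For myeloid markers, nearly all from Adgre1, it was 1074 and 772 in shNC and 0 and 1436 in shGm26917. In shGm26917 replicate 1, Ifitm3 and Adgre1 had TE ratios of 1.73 and 1.03 beside ORF values of 0. The sums of 0 there thus do not mean that these genes had no footprints. The part of these cell types in the results was not tested.

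Most pseudogenes that entered the set were of the processed type. There were 153 processed pseudogenes among 4998 in the table (3.06%), 19 transcribed pseudogenes among 332 (5.72%) and 4 unprocessed pseudogenes among 353 (1.13%). The transcribed group held 9 processed, 7 unprocessed and 3 unitary pseudogenes. The remaining 7 were 5 polymorphic pseudogenes, which code for a protein in some strains, and 2 annotated only as pseudogene. By comparison, 9672 of 16948 protein-coding genes (57.1%) and 159 of 4587 lncRNA genes (3.47%) had a ratio above 0 in all 4 libraries.

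The rule was set mainly by replicate 1 of shGm26917. A ratio above 0 was listed for 1057 and 948 pseudogenes in the shNC libraries and for 358 and 1273 in replicates 1 and 2 of shGm26917. Of 364 pseudogenes at 0 in exactly 1 library and above 0 in the other 3, 320 were at 0 in that replicate. The pseudogenes just outside the rule with the highest ratios elsewhere were Gm46379, with 27.6 and 25.1 in shNC and 0 and 79.6 in shGm26917, and Gm7776, with 21.7 and 61.0 in shNC and 0 and 32.1 in shGm26917. Just inside it were Rps16-ps2, whose smallest ratio was 0.00542, and Gm14165, whose smallest ratio was 0.00636.

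Only 5 of the 183 pseudogenes had an entry in the RefSeq table of promoters. Among them was Rpl37rt, a retrotransposed copy of the ribosomal protein gene Rpl37. A retrocopy usually does not carry its parent's promoter along, and the windows of this pair are given as a description. The sequences (RefSeq, GRCm38.p6) run from 250 bases before to 20 bases after the start of the gene. The window of Rpl37rt is on the minus strand at chr5:115110249-115110518 and that of Rpl37 on the plus strand at chr15:5116363-5116632. The ORF called in Rpl37rt lies at chr5:115103228-115103521, so its window is not the sequence directly beside that ORF. Capitals mark CCAAT, which was searched as CCAAT and, for the other strand, ATTGG.
Rpl37rt: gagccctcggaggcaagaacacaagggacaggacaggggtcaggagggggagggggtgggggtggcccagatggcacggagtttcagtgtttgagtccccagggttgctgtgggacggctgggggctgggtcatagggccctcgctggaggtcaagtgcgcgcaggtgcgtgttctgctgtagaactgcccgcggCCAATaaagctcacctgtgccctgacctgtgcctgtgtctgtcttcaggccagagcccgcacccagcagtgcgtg
Rpl37: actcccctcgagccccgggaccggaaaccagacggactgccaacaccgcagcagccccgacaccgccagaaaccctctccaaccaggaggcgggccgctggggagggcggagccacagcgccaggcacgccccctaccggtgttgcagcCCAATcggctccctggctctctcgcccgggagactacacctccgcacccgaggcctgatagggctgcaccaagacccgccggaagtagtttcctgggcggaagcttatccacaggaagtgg
Each window held 1 match, beginning 55 bases before the start in Rpl37rt and 101 bases before it in Rpl37. CCAAT on either strand was present in 35.4% of all 32851 promoters cut to the same length. The longest run of bases shared by the windows was 8 bases, and no comparison with unrelated windows was made.

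Between the 10th and 90th percentiles the 183 pseudogenes were spread over a wider range of TE than protein-coding genes. Their median ratio was 0.788 and 0.927 in the shNC libraries and 1.30 and 0.929 in replicates 1 and 2 of shGm26917. The median of the geometric mean over 4 libraries was 0.892 against 0.973 for protein-coding genes. The 10th and 90th percentiles were 0.0948 and 9.97, whereas those of protein-coding genes were 0.317 and 2.63. The extremes of protein-coding genes, 0.00396 and 8389, lay outside those of the pseudogenes, 0.0150 and 197. A geometric mean above 10 was seen in 19 pseudogenes (10.4%) against 0.858% of protein-coding genes, and a mean under 0.1 in 22 (12.02%) against 1.60%. The lncRNA genes lay between, with 10th and 90th percentiles of 0.191 and 5.45, 6.92% above 10 and 3.77% under 0.1.

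The wide range went together with a poor agreement of replicates. Between the shNC libraries the ratio of a pseudogene differed by a median of 1.58-fold, and between the shGm26917 libraries by 2.32-fold, while protein-coding genes differed by 1.19-fold and 1.55-fold. In 38 pseudogenes (20.8%) the highest of the 4 ratios was over 10 times the lowest, with 3.42% over all genes and 19.5% of lncRNA genes. The highest value lay in replicate 1 of shGm26917 in 86 of 183 pseudogenes (47.0%), with 39.2% over all genes and 59.1% of lncRNA genes. Many ratios were also shared exactly by several genes. In shNC replicate 1, 98 pseudogenes (53.6%) had the same ratio as another gene, against 13.0% of protein-coding genes and 50.3% of lncRNA genes, and 7 pseudogenes had the ratio 3.94. Ldha-ps3, Gm14111, Gm6981 and Gm14148 had the same ratio of 17.5 in replicate 1 of shGm26917, and 4 pseudogenes, Gm5558 among them, had 8.76 there. In shNC replicate 2 the ratio 4.94 was shared by 4 pseudogenes, and 2.47 and 1.24 by 3 each. Whether such ratios rest on few reads was not tested, so single levels and changes are uncertain.

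**Figure D1:**
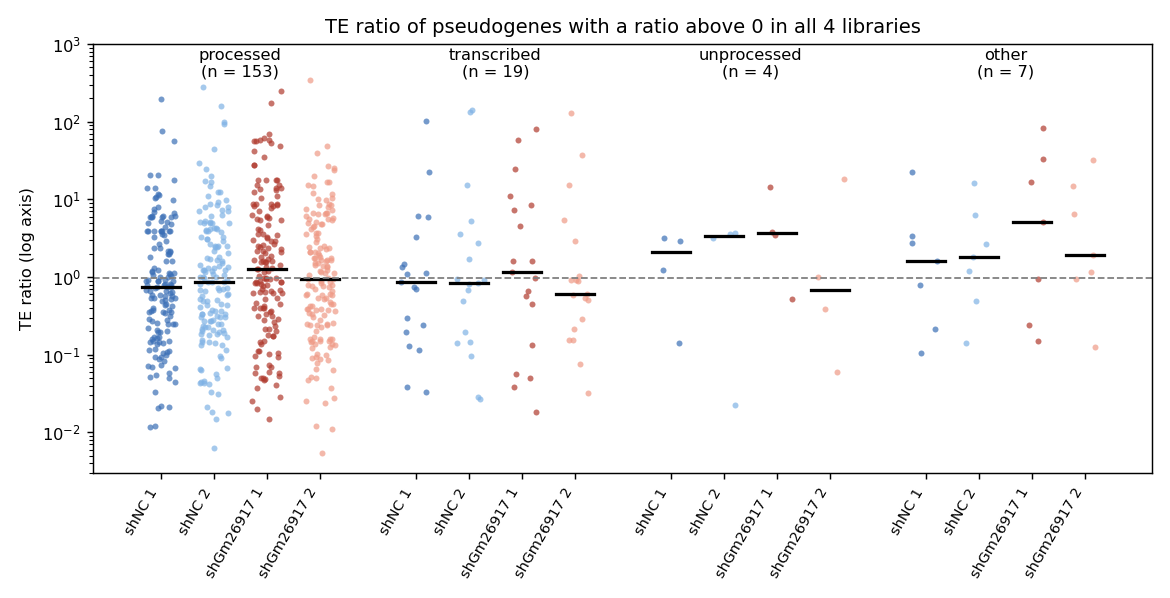
TE ratio (log axis) of each pseudogene in each library, by type, with a black bar at the median of each library and a dashed line at 0.973, the median geometric mean of protein-coding genes. The 153 processed pseudogenes span about the same wide range in every library, and their median was highest in shGm26917 replicate 1.

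Among processed pseudogenes the highest mean log2 ratio over the 4 libraries belonged to Hist1h2al, a copy of a histone H2A gene on chr13:51202727-51203065. Its ratio was 193 and 93.0 in shNC and 245 and 344 in shGm26917. Both shGm26917 values were higher than both shNC values, with a log2 change of 1.12 ± 0.74 (SE, n = 2 libraries a group) and an adjusted p of 0.965 (limma across all genes). Gm14111 reached 56.2 and 277 in shNC and 17.5 and 48.6 in shGm26917, and Gm6981 reached 20.4 and 158 in shNC and 17.5 and 39.8 in shGm26917. For both, replicate 2 of shNC was far above replicate 1, so that the spread within shNC was as wide as the difference between groups. The lowest processed pseudogenes were Hspd1-ps3, a copy of the gene of the mitochondrial chaperonin HSP60, with 0.0122 and 0.0147 in shNC and 0.0255 and 0.0110 in shGm26917, and Rps16-ps2, with 0.0203 and 0.0184 in shNC and 0.0283 and 0.00542 in shGm26917.

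The transcribed group was led by Gm19196, a transcribed unprocessed pseudogene on chr12:21543307-21554521. Its ratio stayed high in every library, at 101 and 142 in shNC and 80.4 and 129 in shGm26917, and the groups overlapped. The median ratio of the 19 transcribed pseudogenes was 0.864 and 0.831 in shNC and 1.15 and 0.609 in shGm26917. Rpl37rt was the lowest of them, with 0.0385 and 0.0265 in shNC and 0.0180 and 0.0323 in shGm26917, followed by Gm6472. Of the 4 unprocessed pseudogenes, Vdac3-ps1, related to a gene of a mitochondrial outer membrane channel, had 0.141 and 0.0222 in shNC and 0.520 and 0.0597 in shGm26917. Mageb7-ps had 3.19 and 3.71 in shNC and 14.4 and 0.986 in shGm26917. The groups overlapped in both genes, and the shGm26917 libraries of each lay far apart.

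Genes of the class I major histocompatibility complex, whose proteins present peptides to T cells, made up 3 of the pseudogenes, on chr17. H2-Bl, a polymorphic pseudogene, had 22.3 and 16.3 in shNC and 33.3 and 31.9 in shGm26917. H2-K2, a transcribed unprocessed pseudogene, had 6.01 and 5.24 in shNC and 11.1 and 5.45 in shGm26917. H2-Q5, a polymorphic pseudogene, had 0.790 and 1.21 in shNC and 0.239 and 0.929 in shGm26917. H2-Bl was thus the highest of these genes in each library, and the groups overlapped in the other genes. How the authors assigned reads that match several genes is not given in the sources used here, and class I genes are close copies of each other.

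The rule did not use the length or the position of a pseudogene. The median genomic span of the set was 1002 bp against 653 bp for the other 5579 pseudogenes. Within types it was 853 bp against 605 bp for processed, 7346 bp against 5369 bp for transcribed and 1083.5 bp against 2490 bp for unprocessed pseudogenes. An ORF was called in 60 of the set (32.8%) and in 75 of the others (1.34%), but ORFs were called from footprints of the same libraries that the rule used. A position within a protein-coding gene on the same strand was found for 22 (12.02%), a share close to the 9.80% of the others, with 13.7% against 9.72% in the processed type and 5.26% against 15.7% in the transcribed type. Examples were Cd63-ps in Hsd17b4, Rpl36a-ps2 in Ddah1, Hmgb1-rs16 in Dnajc13 and Gm13461 in Lrp1b. A further 18 lay only opposite a coding gene, such as Rpl14-ps1 opposite Trpm4. Any overlap with the whole span of a coding gene, introns included, was counted, so it does not show that reads are shared. On the same strand, the use of strand would not separate reads of a pseudogene from those of the gene around it. For those opposite a coding gene, whether the counting used strand is not given in the sources used here.

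For 44 of the pseudogenes a parent gene could be assigned, in 31 from the pseudogene's own symbol and in the others from a synonym in RefSeq. The parent had a ratio above 0 in all 4 libraries in 41 pairs, which covered 38 parent genes. These parents were low, with a median TE of 0.256 and 28.9% of them under 0.1, against 1.60% of protein-coding genes. A pseudogene and its parent share most of their sequence, and the handling of reads that match both is not given in the sources used here, so the values of a pair are uncertain. The pseudogene stood above its parent on the mean log2 ratio in 25 pairs and below it in 16. It was above in all 4 libraries in 16 pairs and below in all 4 in 14. The other 3 pairs had a parent listed at 0 in shGm26917 replicate 1. Rpl36a-ps2 and Rpl3-ps1 were above their parents in all 4 libraries, and Itpa-ps1 was above Itpa in 3. The rule admits only pseudogenes with a ratio above 0, so these counts describe the set and not pseudogenes at large.

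**Figure D2:**
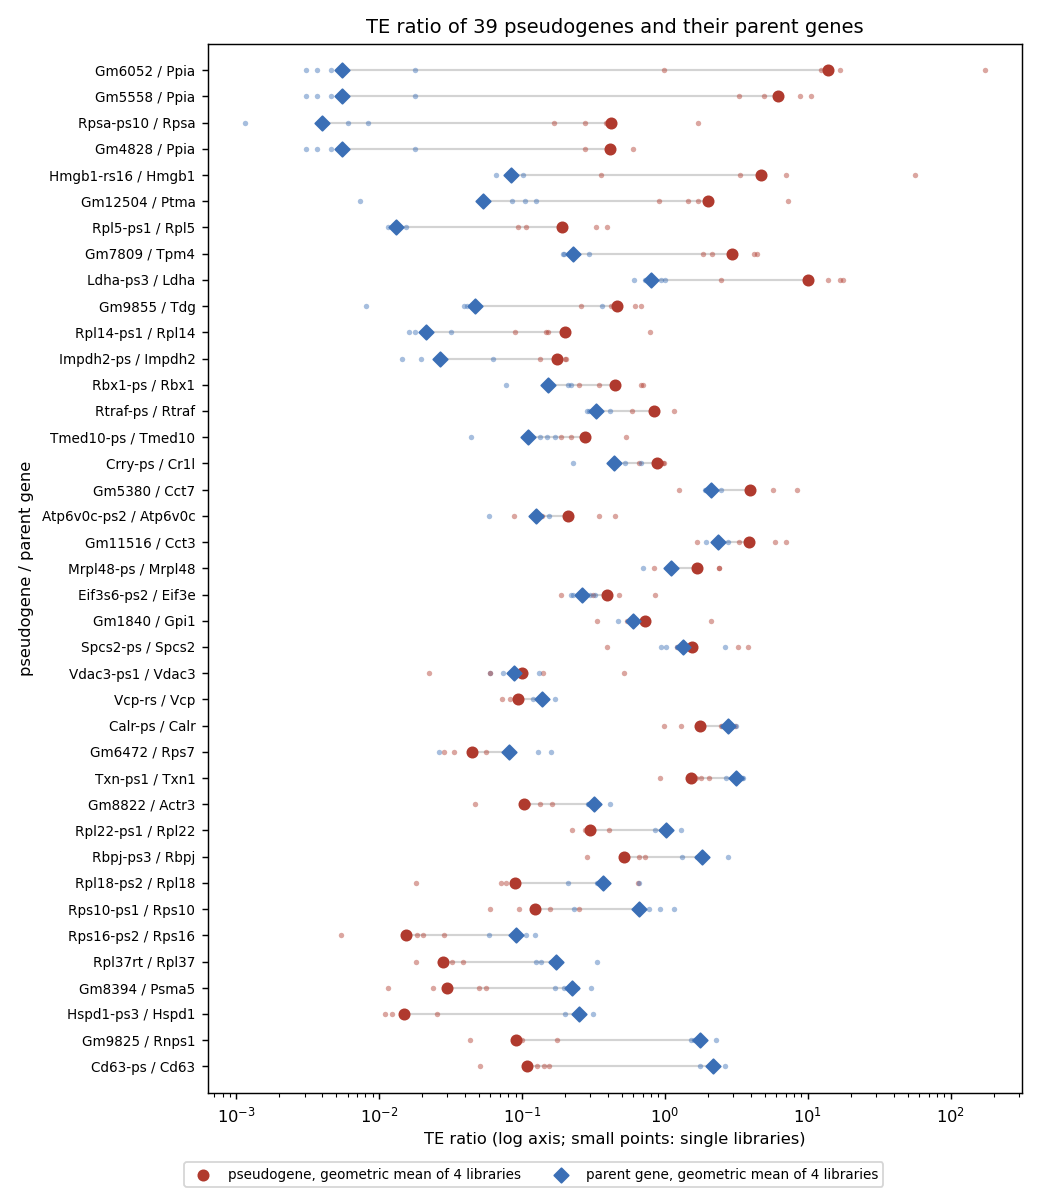
TE ratio (log axis) of 39 of the 41 pseudogenes (red circles) and their parent genes (blue diamonds), as the geometric mean of 4 libraries with single libraries as small points, ordered by the difference. The pair furthest apart is Gm6052 over Ppia at the top, and Cd63-ps lies furthest below its parent, Cd63, at the bottom.

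Gm6052 and Gm5558, copies of Ppia, the gene of the folding enzyme cyclophilin A, stood furthest above their parent, and a further copy, Gm4828, ranked below Rpsa-ps10. The ratio of Ppia itself was 0.00366 and 0.00307 in shNC and 0.0178 and 0.00455 in shGm26917. Gm5558 had 3.28 and 4.94 in shNC and 8.76 and 10.5 in shGm26917, and Gm4828 had 0.419 and 0.275 in shNC and 0.417 and 0.599 in shGm26917. Gm6052 varied most, with 0.985 and 12.4 in shNC and 175 and 16.8 in shGm26917. The copies thus differed among themselves as well. On the geometric mean Gm5558 was 1132-fold and Gm4828 75.02-fold above Ppia. The geometric mean of Ppia was 0.00549, against a 10th percentile of 0.317 among protein-coding genes, so these folds rest on a very low parent. The ratios of Gm5558 in shNC replicate 2 and shGm26917 replicate 1 were each shared exactly by 4 pseudogenes, Gm5558 included. The reads behind the ratios of these copies are not given, so the size of the folds is uncertain on both sides.

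Ribosomal protein pseudogenes lay on both sides of their parents. Of 85 cytosolic ribosomal protein genes 74 had a ratio above 0 in every library, and these had a median TE of 0.0770. At the study's threshold there were 0 of them, with 1.3% higher and 0.86% lower over all genes. Rpsa-ps10, with 0.168 and 0.274 in shNC and 1.71 and 0.386 in shGm26917, stood above Rpsa, which had 0.00605 and 0.00115 in shNC and 0.00831 and 0.00426 in shGm26917. The geometric mean of Rpsa, 0.00396, was the lowest of the protein-coding genes above 0 in every library. Rpl5-ps1 and Rpl14-ps1 were likewise above Rpl5 and Rpl14 in all 4 libraries, by 14.5-fold and 9.36-fold on the mean. Of the 11 pairs with a ribosomal protein parent, the pseudogene was higher on the mean in 4 and lower in 7. With Rpl36a-ps2 and Rpl3-ps1, higher in every library, the counts were 6 and 7. Among the 30 pairs with other parents the pseudogene was higher in 21 and lower in 9, and the difference between these groups of pairs was not tested.

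At the low end, Cd63-ps had 0.127 and 0.141 in shNC and 0.0503 and 0.154 in shGm26917, against 2.17 and 1.74 in shNC and 2.28 and 2.61 in shGm26917 for Cd63, which codes for a tetraspanin of endosomes. Gm9825, named Rnps1-ps among its synonyms, was 19.5-fold below Rnps1, the gene of a splicing factor bound to exon junctions. Hspd1-ps3 was 16.6-fold below Hspd1. Between these extremes lay pairs whose order changed between libraries. Vdac3-ps1 was above Vdac3 in 2 libraries and below it in 2, with a mean difference of 0.18 on the log2 scale and an SD of 1.86 over the 4 libraries. Gm11516 and Gm5380, copies of the chaperonin subunit genes Cct3 and Cct7, were above their parents in 3 of 4 libraries, at 0.609- to 3.63-fold and 0.642- to 4.01-fold of the parent.

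No pseudogene changed in TE between shNC and shGm26917 by the test across all genes. With limma on log2 ratios, 0 of 10115 genes had an adjusted p under 0.05 (0% called), and the smallest adjusted p among the 183 pseudogenes was 0.965. At an unadjusted p under 0.05, 17 of 183 pseudogenes were found against 219 of 10115 genes (2.17%). The study's threshold was met by 16 pseudogenes higher in shGm26917 and by 1 lower. The background over all genes was 132 higher (1.3%) and 87 lower (0.86%), so the 16 are 8.74% of the set. Both shGm26917 libraries were above both shNC libraries in 46 pseudogenes (25.1%, with 16.1% over all genes) and below them in 12 (6.56%, with 14.8% over all genes).

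The balance of these counts was smaller without shGm26917 replicate 1. The median log2 change of the 183 pseudogenes was 0.29, against 0.00 over all genes. A pseudogene entered the set only with a ratio above 0 in that library, so the count and the median are a description of the set and support nothing on a change. Without that library 20 pseudogenes were higher and 14 lower at the study's threshold, with 1.97% and 3.77% over all genes, and the median was 0.19. When pseudogenes and genes were chosen on the other 3 libraries alone, an alternative added after the data were seen, 47 of 503 pseudogenes were higher (9.34%) and 32 lower (6.36%), with 1.92% and 3.73% over all genes. Without shGm26917 replicate 2, 17 pseudogenes passed an adjusted p of 0.05, with 5.76% of all genes called. The 159 lncRNA genes, whose ratios differed between replicates by a median of 1.63-fold in shNC and 2.54-fold in shGm26917, had 14 higher (8.81%) and 4 lower (2.52%) at the study's threshold.

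**Figure D3:**
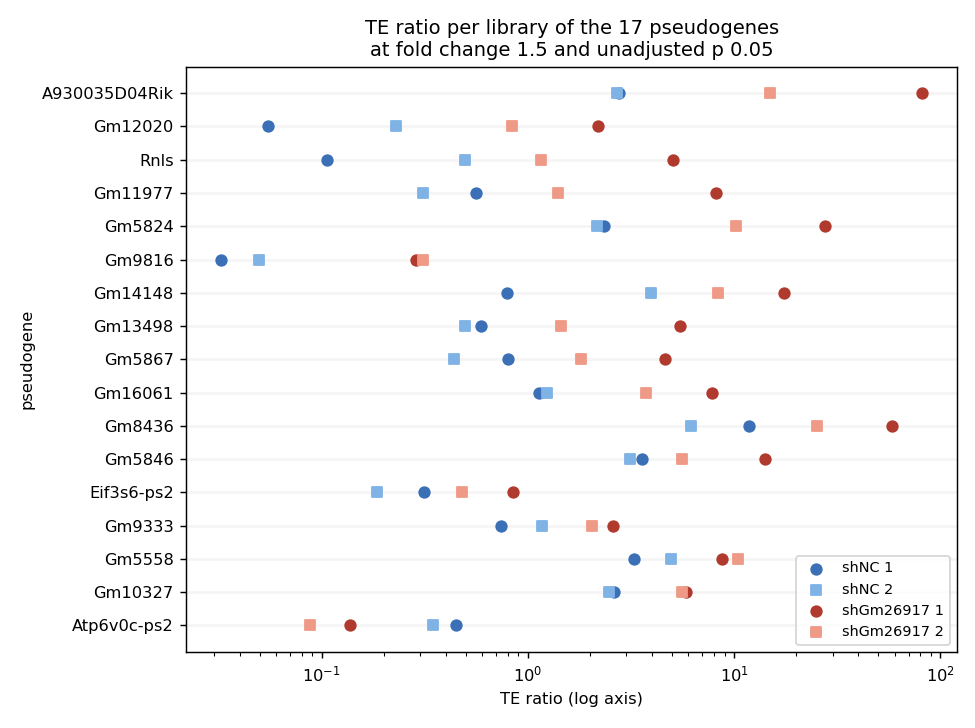
TE ratio (log axis) per library of the 17 pseudogenes at the study's threshold (fold change 1.5, unadjusted p 0.05), ordered by log2 change. In 16 of them both shGm26917 libraries lie above both shNC libraries, and Atp6v0c-ps2 at the bottom shows the opposite order.

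Of single pseudogenes, Gm9816 on chr16:62717037-62718450 had the smallest p. Its ratio was 0.0327 and 0.0498 in shNC and 0.288 and 0.310 in shGm26917. The groups did not overlap and the replicates lay close together, with a log2 change of 2.89 ± 0.49 (SE, limma across all genes, adjusted p = 0.965). Gm16061, opposite Por, had 1.13 and 1.24 in shNC and 7.78 and 3.72 in shGm26917, and Gm5824 had 2.34 and 2.16 in shNC and 27.5 and 10.2 in shGm26917. In both, replicate 1 of shGm26917 was the highest library. Gm10327 had close replicates in both groups, with 2.63 and 2.47 in shNC and 5.84 and 5.59 in shGm26917, each of these values being shared exactly with another gene. The Ppia copy Gm5558, given above, was among the 16, and its log2 change was 1.25 ± 0.36 (SE, limma, adjusted p = 0.965). Some of its ratios were likewise shared exactly with other pseudogenes.

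Atp6v0c-ps2, a copy of a gene of the proton channel ring of the vacuolar ATPase, was the pseudogene that met the study's threshold in the opposite direction. It had 0.448 and 0.348 in shNC and 0.138 and 0.0879 in shGm26917. The groups did not overlap, and the log2 change was -1.84 ± 0.45 (SE, limma across all genes, adjusted p = 0.965). Of the 19 transcribed and the 4 unprocessed pseudogenes, 0 met the threshold, with 1.3% higher and 0.86% lower over all genes. The smallest p among the transcribed type belonged to 2700099C18Rik, with 1.09 and 0.687 in shNC and 0.449 and 0.529 in shGm26917. Zfp862-ps was likewise lower in both shGm26917 libraries, with 0.864 and 0.904 in shNC and 0.566 and 0.609 in shGm26917. Among the other types, A930035D04Rik, opposite Cul1, had 2.76 and 2.70 in shNC and 81.7 and 14.9 in shGm26917, and Rnls, a polymorphic pseudogene in this annotation, had 0.107 and 0.494 in shNC and 5.08 and 1.15 in shGm26917.

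The parent genes showed 0 changes by the same test. Of 38 parents 0 had an adjusted p under 0.05, 0 had an unadjusted p under 0.05 and 0 met the study's threshold. Over all genes 2.17% had an unadjusted p under 0.05 (limma), and 1.3% and 0.86% met the threshold as higher and lower. Their median log2 change was 0.22. Pseudogene transcripts with early stop codons are known substrates of nonsense-mediated decay, the pathway that removes such mRNAs. Of 17 genes of that pathway and of the exon junction complex, 16 had a ratio above 0 in all 4 libraries, and 0 met the study's threshold in either direction, with a median log2 change of 0.07. A list of 54 other frequent sources of processed pseudogenes (52 in the table, 49 above 0 in all libraries) also had 0 genes at the threshold, with a median change of 0.17. At the shares over all genes, lists this short would hold few such genes or none, so these zeros are not a result about the lists.

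ORFs were called by the authors from the positions of footprints, and 139 of the 4669 ORFs lay in 136 pseudogenes. Of these, 63 lay in 60 of the 183 pseudogenes, 52 of them in processed pseudogenes, 8 in transcribed ones, 1 in an unprocessed one and 2 in other types. Their median length was 213 codons, between 43 and 2290. These 63 ORFs held 0.279% and 0.256% of the ORF reads in shNC and 0.315% and 0.381% in shGm26917. In shGm26917 replicate 1, 53 of the 63 ORFs were listed at 0, and 10 were above 0 in all 4 libraries. In shNC 5 and 12 were at 0, and 2 in shGm26917 replicate 2. A 0 could stand beside high values. Gm8995 had 0 and 136 in shNC and 0 and 130 in shGm26917, and Rpl36a-ps2 had 46.6 and 0 in shNC and 0 and 74.8 in shGm26917. Each of the 183 pseudogenes had a TE ratio above 0 in every library, so a 0 for an ORF does not mean that its gene had no footprints. Whether the ORF itself had none or was not listed in that library was not tested.

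Several of these ORFs were as long as the parent's annotated ORF. Where the parent's ORF was also in the table, in 9 cases, the pseudogene's ORF had exactly the same length in 6. These were Cd63-ps (238 codons), Hspd1-ps3 (573), Impdh2-ps (514), Mrpl48-ps (211), Rpl36a-ps2 (106) and Rpl37rt (97). Rpl14-ps1 had 216 codons against 217 in Rpl14, and Vcp-rs had 801 against 806 in Vcp, the gene of an ATPase that extracts proteins for degradation. Eif3s6-ps2, a copy of the translation initiation factor gene Eif3e, kept 154 of 445 codons.

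**Figure D4:**
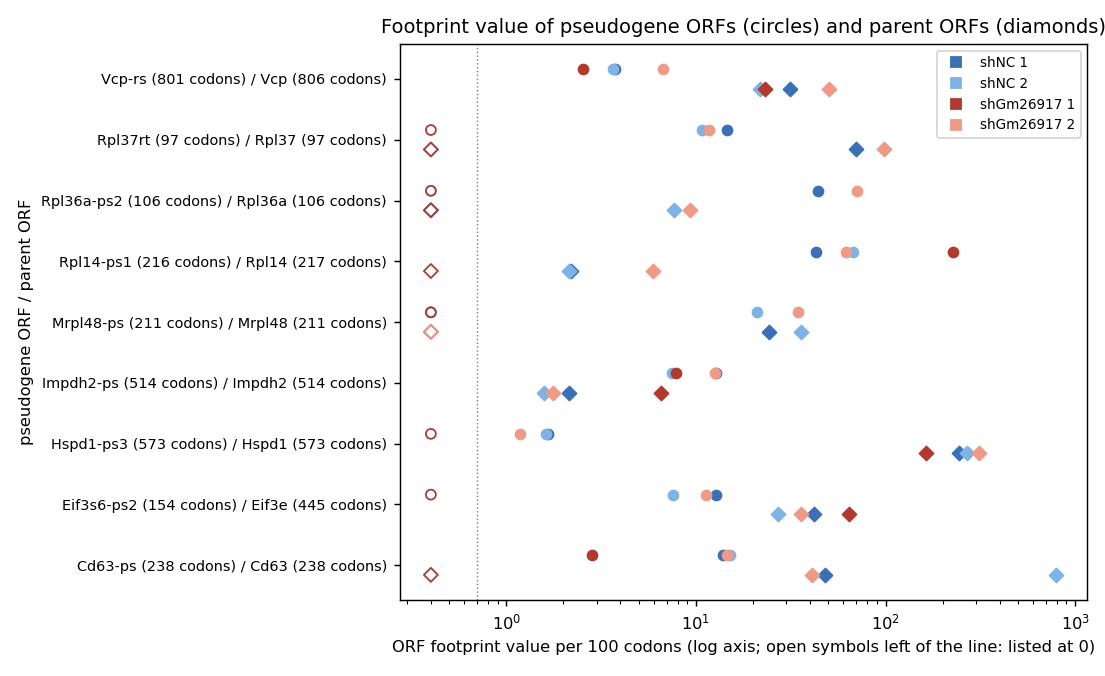
Footprint value per 100 codons (log axis) of 9 pseudogene ORFs (circles) and the annotated ORFs of their parents (diamonds), coloured by library, with open symbols left of the dotted line for ORFs listed at 0. Impdh2-ps lies above Impdh2 in all 4 libraries, and Hspd1-ps3 lies far below Hspd1.

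Footprint values per codon put some of these pseudogene ORFs above the parent and others below it. A value here is a read count divided by a size factor of its library. Rpl14-ps1 had 42.8 and 67.4 per 100 codons in shNC and 228 and 61.9 in shGm26917, while Rpl14 had 2.18 and 2.15 in shNC and 0 and 5.92 in shGm26917. Impdh2-ps, a copy of the gene of the rate-limiting enzyme of guanine nucleotide synthesis, had 12.8 and 7.48 per 100 codons in shNC and 7.87 and 12.6 in shGm26917. Impdh2 had 2.15 and 1.59 in shNC and 6.56 and 1.76 in shGm26917. Both pseudogenes were above their parents in each library, as they were in TE.

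The opposite order was seen in Hspd1-ps3 and Vcp-rs. Hspd1-ps3 had 1.65 and 1.63 per 100 codons in shNC and 0 and 1.19 in shGm26917, against 244 and 270 in shNC and 164 and 310 in shGm26917 for Hspd1. Vcp-rs had 3.75 and 3.64 in shNC and 2.53 and 6.70 in shGm26917, against 31.4 and 21.8 in shNC and 23.1 and 50.4 in shGm26917 for Vcp. The parent was higher in every library in these pairs. The way reads were divided between copies of the same sequence was not tested.

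The ORF with the largest value was a short one, of 43 codons in Gm13461, a processed pseudogene inside Lrp1b. It had 1166 and 719 in shNC and 400 and 2093 in shGm26917. The shGm26917 libraries enclosed both shNC values. The TE ratio of the gene was likewise lowest and highest in the shGm26917 libraries, at 2.33 and 8.67, with 3.96 and 2.64 in shNC. High values were also found for the ORFs of Gm15459 (646 codons), with 291 and 298 in shNC and 0 and 242 in shGm26917, and Eif5al3-ps (148 codons), with 193 and 214 in shNC and 0 and 369 in shGm26917. The 0 lay in replicate 1 of shGm26917 in both.

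No pseudogene ORF changed between the groups by limma across all ORFs, where an ORF listed at 0 entered as a value of 0. In shGm26917 replicate 1 this held for 4297 of the 4669 ORFs, so the test cannot separate unlisted ORFs from a loss of footprints. Of 4669 ORFs 0 had an adjusted p under 0.05 (0% called), and the smallest adjusted p among the 139 pseudogene ORFs was 0.341. At an unadjusted p under 0.05 there were 4, and edgeR and DESeq2 on recovered reads called 0 pseudogene ORFs. Without shGm26917 replicate 2, 19 of the 139 had an adjusted p under 0.05, with 42.5% of all ORFs called. At the study's threshold 4 pseudogene ORFs were lower in shGm26917 and 0 higher, with 7.2% and 0.171% over all ORFs. Of the 4, the ORFs of Gm5182 and Gm12504 belonged to pseudogenes of the set. Gm5182 (743 codons) had 26.9 and 38.5 in shNC. Both shGm26917 libraries listed this ORF at 0, although the TE ratio of the gene there was 0.832 and 0.531. Another ORF of Gm5182 (886 codons) had 0 and 31.5 in shNC and 0 and 16.6 in shGm26917, and was not among the 4. Gm12504 (101 codons), a transcribed copy of Ptma by its RefSeq synonym, had 11.1 and 14.0 in shNC. Like the ORF of 743 codons, it was at 0 in the shGm26917 libraries, with TE ratios of 7.23 and 0.911 for the gene there.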

How the data were processed

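Ribo-seq libraries were grouped by the sample labels. The TE table holds for each gene and library a ratio deposited by the authors, with coordinates in mm10 per the labels. The ORF table holds, for ORFs that the authors found with RiboCode, a signal per library (reads divided by a size factor). In each library 100% of values above 0 were whole multiples of the smallest one, within 0.01 reads, so counts of reads were recovered from the deposited signal. In shGm26917 replicate 1 too few low values were left for a separate check. For the aligner, the counting tool and the use of strand, the answer is "not given in the sources used here". Both tables also carry columns of the authors' own comparison (fold changes, p-values and classes), which were not used.

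Genes whose ratio exceeded 0 in every library were tested as log2 ratios with limma 3.58.1 (trend, Benjamini-Hochberg over all genes tested) in R 4.3.3. ORFs above 1 in at least 2 libraries were tested as log2(value + 1), and fold changes on that scale understate changes of low ORFs. edgeR 4.0.16 and DESeq2 1.42.0 on the recovered reads, other pseudocounts, filters and normalizations, and leaving out each library were the alternatives. The fits were tested on simulated data. Parents were taken from the stem of a symbol or of a RefSeq synonym (-ps, -rs, rt), and 171 of the 183 symbols matched RefSeq. Named pseudogenes were, for each type, the 3 highest and 2 lowest in TE and the 3 smallest p in each direction, up to 12 with a parent in the symbol, those with an ORF, and those next to the rule's limit. Others, such as the Ppia copies and the class I genes, were chosen after their values were seen. The set and the gene lists were chosen with earlier results of these data known. Values of some items are not reported here.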

Additional observations from a re-analysis of the deposited data

How the results depend on the processing

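The count of pseudogenes with an adjusted p under 0.05 was 0 under each alternative with all 4 libraries and 0 to 17 with 1 library left out, and that of parent genes 0 and 0 to 2. The higher counts were those without shGm26917 replicate 2, where replicate 1 is assumed to vary like the shNC libraries. At the study's threshold, 16 pseudogenes higher became 10 with no filter on zeros and a pseudocount of 0.01, 47 of 503 when chosen on 3 libraries, and 13 to 56 with 1 library left out, the 56 without shGm26917 replicate 2 (16.5% over all genes). The 1 lower became 3 with quantile normalization, 2 with the replicate block, 32 when chosen on 3 libraries, and 2 to 26 with 1 library left out, with 26 without shGm26917 replicate 2 (17.8% over all genes), 14 without its replicate 1, and 3 and 2 without shNC replicates 1 and 2. For parent genes at the threshold the count of 0 became 1 with no filter on zeros and 0 to 11 with 1 library left out (11 of 38 without shGm26917 replicate 2, with 34.3% over all genes, 1 without its replicate 1). The median log2 change of the pseudogenes was 0.17 to 0.62 with 1 library left out, lowest without shNC replicate 1 and highest without shGm26917 replicate 2. The pseudogene was above its parent in 14 of 22 pairs with both at 0.05 or more, and in 23 to 25 of 41 with 1 library left out. Pseudogene ORFs with an adjusted p under 0.05 were 0 in each fit with all 4 libraries, edgeR and DESeq2 included, and 0 to 19 with 1 left out (19 without shGm26917 replicate 2). The 4 lower ORFs became 0 among those above 0 in all libraries, 0 with edgeR, 2 with DESeq2, 1 with the replicate block, and 0 to 23 with 1 left out (23 of 139 without shGm26917 replicate 2, with 44.8% over all ORFs, 0 without its replicate 1, 6 and 8 without shNC replicates 1 and 2), and the 0 higher became 0 to 1. Of 22 pseudogenes whose change was followed, Mageb7-ps reversed with quantile normalization, to -0.30, and ranged from -1.80 to 2.07 with 1 library left out. So did Gm8995 (-1.74 to 0.26), Hyi (-0.85 to 0.17) and Spcs2-ps (-2.33 to 0.96). The cause was not tested. Same-numbered replicates did not deviate together (correlation -0.043 over 10115 genes), so the replicate block pairs libraries by number only. With it 22 pseudogenes were higher at the threshold. The share over all genes is not given for the block, quantile normalization or no filter on zeros. Those counts therefore lack a background and are not a result about the pseudogenes. The ORF value of 1 read differed between libraries: it was 2.25 in shGm26917 replicate 1 and 0.756 to 1.17 in the others.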

Other observations

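ORFs were also called in pseudogenes that had no ratio above 0 in at least 1 library. There were 76 such ORFs, and 2 of them were above 0 in all 4 libraries. The ORF of Gm9385 (104 codons) had 221 and 127 in shNC and 44.95 and 254 in shGm26917. The ORF of Got2-ps1, a copy of the mitochondrial aspartate aminotransferase gene, had the same 430 codons as that of Got2, with 34.7 and 124 in shNC and 0 and 122 in shGm26917. In all, 10 of these pseudogenes had the parent's ORF in the table, and 4 of them had an ORF of the parent's length.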
